A study of Mus musculus with 13 samples.

Results

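The RNA levels of 36 genes of glycolysis and of the response to low oxygen were followed in activated mouse B cells without Whsc1, which encodes a methyltransferase for lysine 36 of histone H3, and in WT ones. The genes were taken by symbol from a fixed list: 17 glycolytic enzymes, 4 transporters of glucose or lactate, 5 kinases that regulate the pathway, 3 genes of the hypoxia-inducible factor (HIF) and its hydroxylases, and 7 other genes induced by hypoxia. All 36 were found among the 47643 genes of the deposited table, and all 36 passed the filter on low values that left 13947 genes for testing. Poly-A selected RNA of 6 Whsc1-KO and 7 WT libraries was compared, each described by the study as an independent biological replicate. Both groups were C57BL/6 splenic B cells that had developed from fetal liver cells of Whsc1-KO or WT littermate embryos in lethally irradiated RAG1-KO recipients, a host without mature lymphocytes of its own. All cells had been isolated by removal of cells that carry CD43 and cultured for 48 h with 25 µg/ml lipopolysaccharide (LPS), which makes B cells divide and switch antibody class. The labels number the replicates 1 to 6 in Whsc1-KO and 1 to 7 in WT without saying what a number stands for, so replicates 1 to 3 and the later ones (Whsc1-KO 4 to 6, WT 4 to 7) are given separately and are not called batches.

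Glycolysis splits glucose into pyruvate in the cytosol, and B cells that are activated take up more glucose and run the pathway faster. HIF is a pair of proteins, an oxygen-regulated alpha subunit such as the product of Hif1a and a stable beta subunit; when oxygen is plentiful, prolyl hydroxylases of the Egln family mark the alpha subunit for destruction. When oxygen is scarce the alpha subunit persists, binds short DNA elements with the letters ACGTG or GCGTG, and raises the transcription of genes for glucose uptake, glycolysis, lactate export and a lower use of pyruvate in mitochondria. RNA for Hif1a itself is thus only part of what sets the activity of the factor.

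The libraries held 38881663 to 53019516 reads in genes. Values are normalized counts, that is, gene counts divided by a size factor per library, so they compare 1 gene between libraries and not genes of different length. RNA of Whsc1 was present in every library, at 3733 to 5261 in Whsc1-KO and 5537 to 7459 in WT; the labels do not give the deleted part of the gene, so this total does not check them. The summed level of 6 B cell markers was 223111 to 231226 in Whsc1-KO replicates 4 to 6, 287349 to 299462 in Whsc1-KO replicates 1 to 3 and 338409.7 to 394199 in WT. Of the 6, 4 were lower in Whsc1-KO over all libraries, 3 within replicates 1 to 3 and 6 within the later set. The 8 myeloid markers summed to 10605 to 13555 in Whsc1-KO replicates 4 to 6 and 1141 to 1472 in Whsc1-KO replicates 1 to 3. In WT they summed to 319 to 728. The 5 tested ones were all higher over all libraries and within the later set. Within replicates 1 to 3 Cd68 and Adgre1 were higher, while Lyz2, Csf1r and Cd14 did not pass. S100a8, S100a9 and Mpo were at or near 0 in all libraries, except for S100a8 at up to 18.4 in Whsc1-KO replicates 4 to 6. The 8 erythroid markers summed to 12911 to 194427 in Whsc1-KO replicates 4 to 6, against 1787 to 3323 in WT replicates 4 to 7, and to 2568 to 3049 in Whsc1-KO replicates 1 to 3, against 869 to 1550.1 in WT replicates 1 to 3. Of the 5 tested ones, 4 were higher over all libraries, 4 within replicates 1 to 3 and 5 within the later set. The 4 platelet markers summed to 42.4 to 201 in Whsc1-KO and 43.8 to 84.6 in WT, and of the 2 tested ones Pf4 was higher within the later set (log2 fold change 3.59, SE 0.61, adjusted p = 0.00024). Markers of T and NK cells summed to at most 73.7 and 62.5. By Xist and Y-linked RNA, Whsc1-KO replicates 1 to 3 and 6 and WT replicates 6 and 7 were male and the other libraries female, so in replicates 1 to 3 the effects of sex and genotype cannot be told apart. In bulk samples fewer cells of a type and less RNA per cell cannot be told apart.

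Over all libraries the 36 genes were mostly lower in Whsc1-KO. In limma's test on log2(normalized count + 1), with Benjamini-Hochberg adjustment over all genes and a threshold of 0.05, 20 genes were lower, 2 were higher and 14 did not pass. Among all genes tested, 25.7% were lower and 26.1% higher, 51.8% together. The median log2 fold change (Whsc1-KO over WT, as everywhere here) was -0.54 over the 36 genes and 0.00 over all genes tested. The lower ones spanned every role, from the glucose transporter Slc2a3 through 7 enzymes to the kinase Pdk1 and the HIF subunit Hif1a, while the higher ones were the hexokinase Hk3 and the lactate transporter Slc16a1. Without Whsc1-KO replicates 4 to 6 the counts became 4 lower and 0 higher, and the 4 that still passed were Hif1a (adjusted p = 0.000317), the muscle-type phosphofructokinase Pfkm (adjusted p = 0.000568), the fructose 2,6-bisphosphate-making kinase Pfkfb3 (adjusted p = 0.013) and the collagen prolyl hydroxylase subunit P4ha1 (adjusted p = 0.0379). The share of all genes tested that passed in this smaller fit is not given, so the drop cannot be called particular to these genes. The 2 higher calls depended on single libraries. That of Hk3 was lost without any 1 of Whsc1-KO replicates 4, 5 and 6 or WT replicates 1, 2, 3, 4, 5 and 7, and that of Slc16a1 without any 1 of Whsc1-KO replicates 4, 5 and 6 or WT replicates 2, 4, 5, 6 and 7. The count of higher genes was 0 without Whsc1-KO replicate 4 or 6 or WT replicate 4 or 7, and 1 without Whsc1-KO replicate 5 or WT replicate 1, 2, 3 or 6.

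The effect was split unevenly between the sets of replicates. Within replicates 4 and later, 25 of the 36 genes were lower, 4 were higher and 7 did not pass, with a median log2 fold change of -0.81; of all genes tested, 30.6% were lower and 30.7% higher there, 61.3% together. Within replicates 1 to 3, 2 genes were lower (Pfkm and Hif1a), 1 was higher (the pyruvate dehydrogenase kinase Pdk2) and 33 did not pass, with a median of -0.23; of all genes tested, 12.6% were lower and 10.5% higher, 23.1% together. Counts in replicates 1 to 3 rested on single libraries: 10 genes were lower without WT replicate 3 and 4 without Whsc1-KO replicate 1, and none was higher without Whsc1-KO replicate 2 or 3 or without WT replicate 3. The difference between the sets was tested itself. It was more negative in the later set for 8 genes (Gpi1, Aldoc, Slc16a3, Pdk1, Pfkfb4, P4ha1, Ankrd37 and Kdm3a) and more positive for 3 (Hk3, Ldhb and Slc16a1), against 10.9% and 14.5% of all genes tested, 25.4% together. Without Whsc1-KO replicate 3 it was more negative for 15 genes, and without WT replicate 5 for 13. The shares of all genes tested that passed with a library left out are not given, here or for replicates 1 to 3. The shifts in these counts thus cannot be called particular to the 36 genes.

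**Figure D1:**
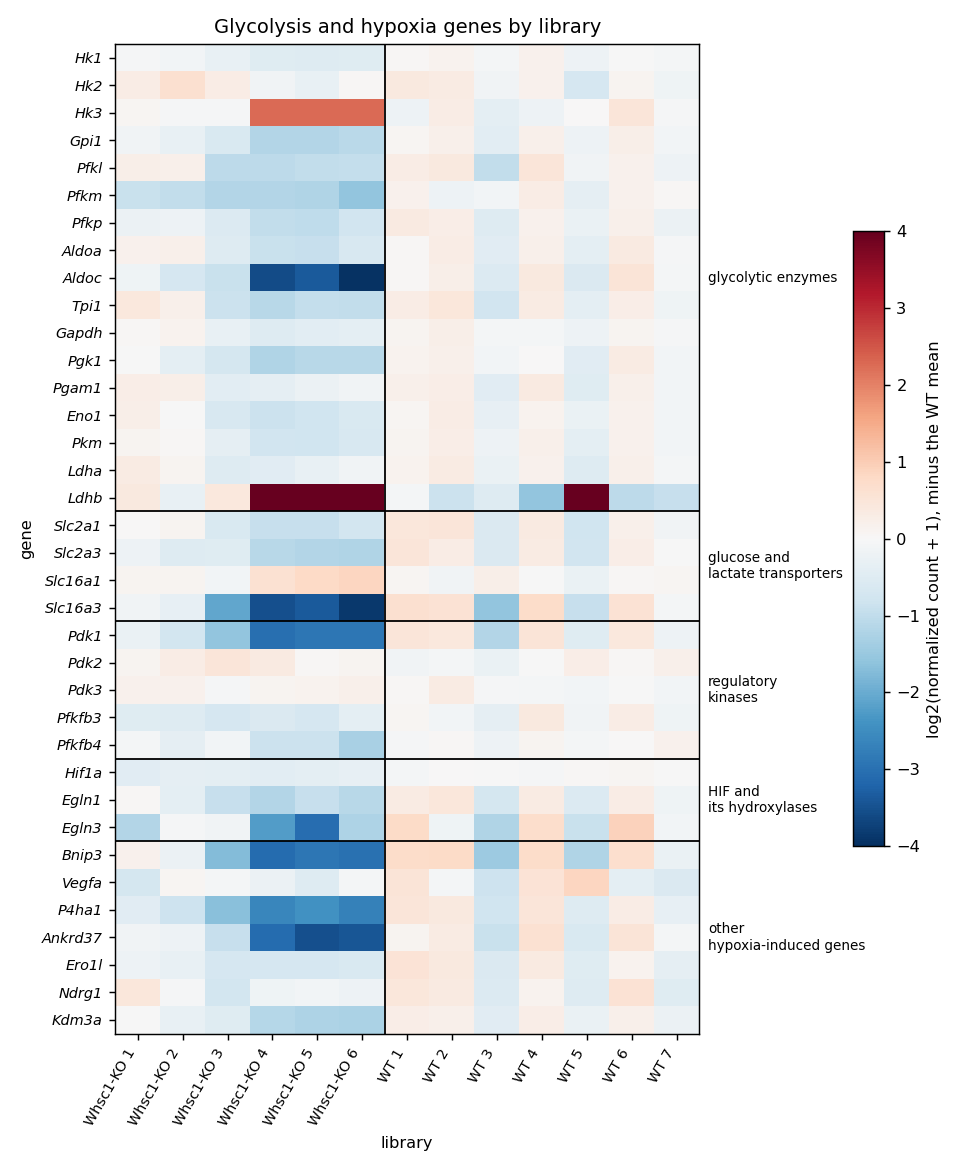
Each cell shows log2(normalized count + 1) of a gene (rows, grouped by role) in a library (columns, 6 Whsc1-KO left of 7 WT), minus the mean of the WT libraries; blue is lower and red is higher, and the colour scale ends at -4 and 4. The 3 later Whsc1-KO libraries are blue for most genes and red for Hk3 and Ldhb, and WT replicates 3 and 5 are bluer than the other WT libraries.

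**Figure D2:**
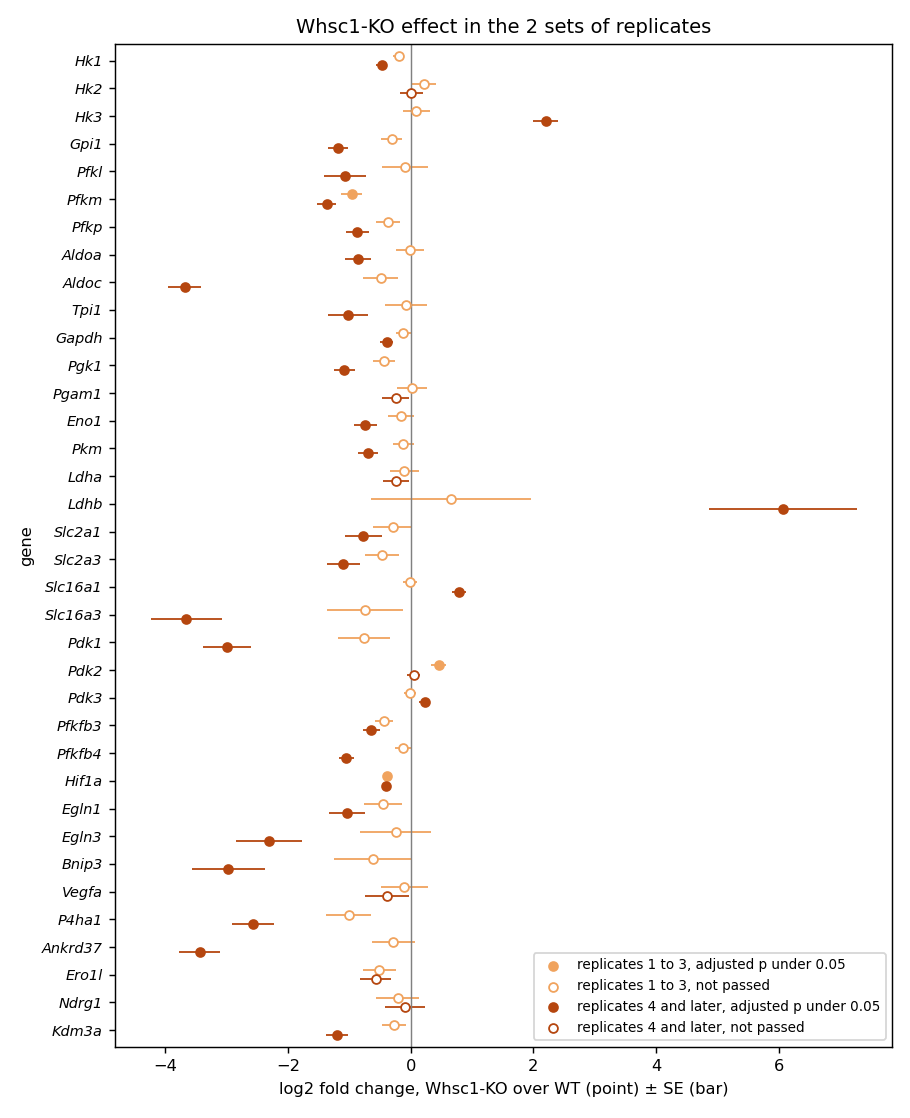
Points show the log2 fold change of Whsc1-KO over WT for each gene (rows) within replicates 1 to 3 (light) and within replicates 4 and later (dark), with bars of 1 SE; filled points passed the threshold of 0.05 on the adjusted p. Only Pfkm, Hif1a and Pdk2 are filled in the light set, while 29 of the 36 are filled in the dark set.

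The WT libraries themselves varied together in these genes. WT replicate 3 had the lowest WT value for 21 of the 36 genes and WT replicate 5 for 12. Taking each gene relative to its WT mean, the median over the 36 genes was -0.46 (log2) in WT replicate 3 and -0.39 in WT replicate 5, and between -0.12 and 0.28 in the other WT libraries. Among Whsc1-KO libraries the same median was 0.00, -0.16 and -0.53 in replicates 1 to 3 and -0.88, -0.89 and -0.69 in replicates 4 to 6, while the median over all genes tested stayed within 0.01 of 0 in each of the 13 libraries. The SD of the log2 values among WT libraries had a median of 0.34 over the 36 genes and 0.18 over all genes tested. It was 0.53 for the other hypoxia-induced genes and 0.51 for the transporters, but 0.18 for the regulatory kinases. Among these kinases the SD ran from 0.12 for Pfkfb4 to 0.64 for Pdk1. What sets WT replicates 3 and 5 apart was not tested.

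Hif1a, which encodes the oxygen-regulated HIF subunit (chromosome 12, 73901375 to 73947530, plus strand, GRCm38), was an exception to this spread. It had 3573, 3827 and 3739 normalized counts in Whsc1-KO replicates 1 to 3 and 3646, 3709 and 3877 in Whsc1-KO replicates 4 to 6, against 4668, 4991 and 4865 in WT replicates 1 to 3 and 4755, 5080.3, 5179.9 and 4804 in WT replicates 4 to 7. Every Whsc1-KO library lay below every WT library, which held for 10.2% of all genes tested. The mean was 3729 ± 112 (SD, n = 6) in Whsc1-KO and 4906 ± 185 (SD, n = 7) in WT. The log2 fold change was -0.40 (SE 0.04, adjusted p = 9.53e-06) over all libraries, -0.38 (SE 0.05) in replicates 1 to 3 and -0.40 (SE 0.05) in the later ones. The difference between the sets was -0.02 (SE 0.07, adjusted p = 0.86). The WT libraries had an SD of 0.05 on the log2 scale for Hif1a, and 0.98 for the hypoxia-induced gene Bnip3. Exons of Hif1a overlap those of an annotated transcript on the same strand and another on the opposite strand, whose reads may be counted in either gene.

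All 3 genes of HIF and its hydroxylases were lower over all libraries (median log2 fold change -0.74). Egln1 and Egln3 encode prolyl hydroxylases and are themselves induced by hypoxia. Egln1 had 2731, 2021 and 1377 normalized counts in Whsc1-KO replicates 1 to 3 and 1169, 1389 and 1219 in Whsc1-KO replicates 4 to 6, against 1623 to 3633 in WT, with the lowest WT values in replicates 3 and 5 (1623 and 1805). The log2 fold change of Egln1 was -0.74 (SE 0.24, adjusted p = 0.0169) over all libraries and -1.04 (SE 0.29) in the later set. Egln3 ran from 66.2 to 529 (median 239) in Whsc1-KO and from 240 to 1029 (median 504) in WT, and the groups overlapped. Its log2 fold change was -1.30 (SE 0.49, adjusted p = 0.0388) over all libraries, and its call was lost when any of 9 libraries was left out, all but Whsc1-KO replicates 2 and 3 and WT replicates 3 and 5 (adjusted p at most 0.09). It was also lost with edgeR (adjusted p = 0.0573), with DESeq2 (adjusted p = 0.0549), with a replicate block (adjusted p = 0.0646) and without a filter (adjusted p = 0.052). Within the later set Egln3 fell by 2.31 on the log2 scale (SE 0.54).

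**Figure D3:**
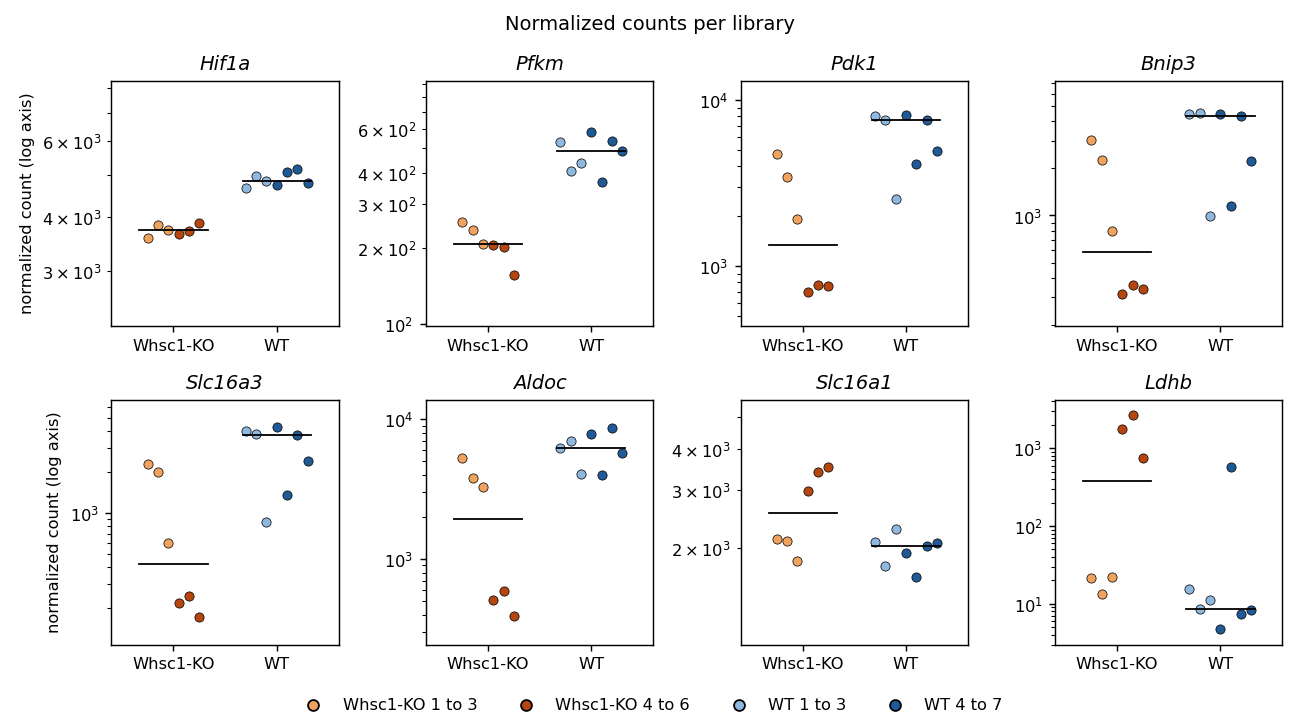
Points show the normalized count (log axis) of 8 genes in each library, Whsc1-KO left and WT right, light for replicates 1 to 3 and dark for later ones; the line is the group's median. Hif1a and Pfkm separate the genotypes in all libraries, whereas Pdk1, Bnip3, Slc16a3 and Aldoc are lowest in the 3 later Whsc1-KO libraries and Slc16a1 and Ldhb are highest there.

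Of the 7 hypoxia-induced genes outside glycolysis, 5 were lower, 0 were higher and 2, Vegfa and Ndrg1, did not pass; the median log2 fold change was -0.74. Within the later set 4 were lower, and within replicates 1 to 3 none passed. Bnip3, which encodes a receptor for the removal of mitochondria by autophagy, had 3042, 2270.3 and 799 normalized counts in Whsc1-KO replicates 1 to 3 and 314, 361 and 337 in Whsc1-KO replicates 4 to 6. In WT it had 4439, 4526 and 985 in replicates 1 to 3 and 4462, 1149.9, 4300.1 and 2244 in replicates 4 to 7. The 3 later Whsc1-KO libraries lay below all others, while Whsc1-KO replicates 1 to 3 lay within the range of WT replicates apart from replicate 3 at 799. Bnip3 had a log2 fold change of -1.79 (SE 0.60, adjusted p = 0.0222), and the call was lost without any 1 of Whsc1-KO replicates 4, 5 and 6 (adjusted p = 0.0531 to 0.0553) and with edgeR (adjusted p = 0.0646) and DESeq2 (adjusted p = 0.0509).

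Ankrd37, a small ankyrin repeat gene known as a HIF target, had 1657, 1583 and 957 normalized counts in Whsc1-KO replicates 1 to 3 and 215, 160.3 and 170.2 in Whsc1-KO replicates 4 to 6, against 995 to 2786 (median 1964) in WT. Over all libraries its log2 fold change was -1.88 (SE 0.58, adjusted p = 0.0141), a call lost with edgeR (-1.29, adjusted p = 0.0647) and DESeq2 (-1.30, adjusted p = 0.0612). It was -3.44 (SE 0.33) in the later set and -0.28 (SE 0.35) in replicates 1 to 3, and the difference of -3.16 (SE 0.48) passed with an adjusted p of 0.000906. P4ha1, which makes collagen able to fold by hydroxylating its prolines, had 1904, 1453 and 806 in Whsc1-KO replicates 1 to 3 and 422, 479.8 and 397 in Whsc1-KO replicates 4 to 6, against 1499 to 3627 (median 3180.4) in WT. Whsc1-KO replicates 2 and 3 were below every WT library in the first set too, and its log2 fold change there was -1.01 (SE 0.37, adjusted p = 0.0633), against -2.57 (SE 0.34) in the later set. The difference between the sets of -1.55 for P4ha1 (adjusted p = 0.0387) was lost without any 1 of 8 libraries, which were Whsc1-KO replicates 1, 2, 4, 5 and 6 and WT replicates 3, 4 and 6 (adjusted p at most 0.0898).

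Kdm3a, a histone H3 lysine 9 demethylase, ran from 2782 to 3002 in Whsc1-KO replicates 4 to 6 and from 4735 to 6613 in Whsc1-KO replicates 1 to 3, against 4879 to 8035 in WT. It fell by 0.74 on the log2 scale over all libraries (SE 0.21, adjusted p = 0.0109). Its difference between the sets of -0.93 (SE 0.27, adjusted p = 0.0227) was lost without Whsc1-KO replicate 1 (adjusted p = 0.0529) or 5 (adjusted p = 0.0501). Ero1l, an oxidase that forms disulfide bonds in the endoplasmic reticulum, ran from 3708 to 5133 in Whsc1-KO and from 3969 to 8611 in WT, with WT replicates 3 and 5 (3969 and 4285) lowest. Its log2 fold change was -0.52 (SE 0.18, adjusted p = 0.0275), and was lost without any 1 of Whsc1-KO replicates 4, 5 and 6 or of WT replicates 1, 2, 4 and 6 (adjusted p at most 0.0564). Vegfa, which encodes the vascular growth factor, had 2436 to 4135 normalized counts in Whsc1-KO and 2197 to 7081 in WT, with its highest WT value in replicate 5, where most other genes were low (log2 fold change -0.26, SE 0.25, adjusted p = 0.415). Ndrg1, a stress-induced gene of differentiated cells, had 157 to 357 in Whsc1-KO and 179.5 to 389 in WT (log2 fold change -0.13, SE 0.23, adjusted p = 0.639).

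HIF binds DNA at the letters ACGTG or GCGTG, so the 250 bases before each listed transcription start (RefSeq, GRCm38.p6) were searched for these on both strands. A gene counted as holding a motif if any of its listed starts had it. Of 34 members with an entry, 22 (64.7%) held ACGTG, 23 (67.6%) held GCGTG and 32 (94.1%) held at least 1 of them. The same shares were 18.5%, 30.9% and 41.5% over 27025 genes, and 25.1%, 50.2% and 61.5% over the 9624 tested genes with an entry, and many of the 36 genes are textbook HIF targets. The longer motif CACGTG, the E-box bound by MYC and related factors, contains ACGTG and was held by 7 members (20.6%), 6.86% of all genes and 9.95% of the tested ones. The 160 bases before the start are printed for 4 genes that were lower in the later Whsc1-KO libraries, for Hif1a, whose fold change was -0.38 and -0.40 in the 2 sets, and for the lactate dehydrogenase gene Ldha, which did not pass. These 6 were picked after their values and motifs were seen. Capitals mark ACGTG or GCGTG on the printed strand or on the other one (read there as CACGT or CACGC), with an overlapping letter where the match is CACGTG. A match is a description of letters, not of bound sites. The stretch just after the RefSeq start was not found unbroken in a GENCODE transcript of the gene for Hif1a and Ldha. For Ldha, 1 of 2 listed starts is printed. The windows of Ankrd37, Slc16a3, Hif1a and Ldha lie inside the annotated gene spans, so they are not upstream of the whole gene. The Bnip3 window overlaps the first bases of its span, and the P4ha1 window lies just before its gene.
Bnip3 (chr7:138909507-138909666, minus strand): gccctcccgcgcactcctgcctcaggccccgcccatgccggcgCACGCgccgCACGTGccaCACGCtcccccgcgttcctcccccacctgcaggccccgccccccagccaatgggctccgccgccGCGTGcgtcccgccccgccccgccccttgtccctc
Ankrd37 (chr8:45999851-46000010, minus strand): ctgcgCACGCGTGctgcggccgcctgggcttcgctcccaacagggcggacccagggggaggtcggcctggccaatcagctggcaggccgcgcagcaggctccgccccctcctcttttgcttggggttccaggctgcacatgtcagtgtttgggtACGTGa
Slc16a3 (chr11:120948907-120949066, plus strand): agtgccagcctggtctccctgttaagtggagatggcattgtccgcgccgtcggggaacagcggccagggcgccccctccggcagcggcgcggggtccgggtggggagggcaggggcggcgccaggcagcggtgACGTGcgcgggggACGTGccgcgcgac
P4ha1 (chr10:59323136-59323295, plus strand): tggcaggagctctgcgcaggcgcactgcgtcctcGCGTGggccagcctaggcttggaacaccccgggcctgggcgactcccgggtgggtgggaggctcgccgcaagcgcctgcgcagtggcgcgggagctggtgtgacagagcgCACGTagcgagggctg
Hif1a (chr12:73907707-73907866, plus strand): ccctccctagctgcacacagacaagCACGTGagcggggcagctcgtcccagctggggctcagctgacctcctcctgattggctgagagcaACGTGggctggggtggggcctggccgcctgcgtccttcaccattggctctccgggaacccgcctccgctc
Ldha (chr7:46845644-46845803, plus strand): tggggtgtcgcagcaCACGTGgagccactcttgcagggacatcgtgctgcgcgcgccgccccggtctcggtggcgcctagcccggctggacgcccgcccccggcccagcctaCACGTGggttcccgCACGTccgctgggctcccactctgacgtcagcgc
All 6 windows hold such letters, in 4 separate stretches for Bnip3, 3 for Ldha and 2 for each of the others; Ldha, whose level did not pass, has 2 copies of CACGTG, Bnip3 and Hif1a have 1 each, and the windows of Ankrd37, Slc16a3 and P4ha1 have 0.

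Of the 4 transporters, 2 were lower, 1 was higher and 1 did not pass (median log2 fold change -0.65). Slc2a1 and Slc2a3 encode the glucose carriers GLUT1 and GLUT3. Slc2a3 ran from 996 to 1957 (median 1321) in Whsc1-KO and from 1328 to 3167 (median 2752) in WT, and was lower (log2 fold change -0.78, SE 0.23, adjusted p = 0.0114). Slc2a1 ran from 1361 to 2782 in Whsc1-KO and from 1497 to 3681 in WT, and did not pass (-0.52, SE 0.24, adjusted p = 0.0897). Within the later set Slc2a1 passed at -0.77 (SE 0.30, adjusted p = 0.0378), a call lost without any 1 of Whsc1-KO replicates 4, 5 and 6 or WT replicates 4, 6 and 7 (adjusted p at most 0.102).

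Slc16a3 encodes MCT4, the lactate exporter known as a HIF target, and Slc16a1 encodes MCT1, a carrier of lactate and pyruvate in both directions. Slc16a3 had 2271, 1993 and 596 normalized counts in Whsc1-KO replicates 1 to 3 and 219, 247 and 173 in Whsc1-KO replicates 4 to 6, against 3969, 3785 and 851 in WT replicates 1 to 3 and 4235, 1341, 3728 and 2393 in WT replicates 4 to 7. The 3 later Whsc1-KO libraries were below all others. Slc16a3 had a log2 fold change of -2.22 (SE 0.64, adjusted p = 0.00995) over all libraries, -3.66 (SE 0.58) in the later set and -0.75 (SE 0.62) in replicates 1 to 3. The difference between the sets was -2.91 (SE 0.85, adjusted p = 0.0247), lost without any 1 of Whsc1-KO replicates 1, 2 and 6 and WT replicate 3 (adjusted p at most 0.0583).

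Slc16a1 had 2136, 2107 and 1825 normalized counts in Whsc1-KO replicates 1 to 3 and 2985, 3419 and 3541 in Whsc1-KO replicates 4 to 6, against 2085, 1765 and 2282 in WT replicates 1 to 3 and 1929.7, 1629, 2026 and 2078 in WT replicates 4 to 7. The later Whsc1-KO libraries were above all others, and the first 3 lay within the WT range. The log2 fold change was 0.79 (SE 0.11, adjusted p = 3.71e-05) in the later set and -0.01 (SE 0.11) in replicates 1 to 3, and the difference of 0.80 (SE 0.16) had an adjusted p of 0.00314. Per kilobase of exon, Slc16a3 made up 21.3% ± 19.8 (SD, n = 6) of the sum of both lactate carriers in Whsc1-KO and 52.0% ± 15.3 (SD, n = 7) in WT. It was 5.11% in the later Whsc1-KO libraries and 23.7% and 40.7% in WT replicates 3 and 5.

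Of the 17 glycolytic enzymes, 7 were lower, 1 was higher and 9 did not pass over all libraries, with a median log2 fold change of -0.44. In the later set 12 were lower and 2 higher. Per kilobase of exon the most abundant were Gapdh at 22629.7 in Whsc1-KO and 26502 in WT, Pgk1 at 11866 in Whsc1-KO and 19344 in WT, and Pkm at 10067 in Whsc1-KO and 13019 in WT (mean normalized counts per kilobase). Aldoa was close to Pkm, at 9805 in Whsc1-KO and 12858 in WT. The length, here and in all shares of a family, is that of all annotated exons of a gene merged. Ranks and shares depend on that choice. Ldha, which makes lactate, had 21759 to 39099 normalized counts in Whsc1-KO and 21534 to 39402 in WT, almost the same range (log2 fold change -0.16, SE 0.16, adjusted p = 0.423), and Pgam1, a phosphoglycerate mutase, had 10372 to 16890.4 in Whsc1-KO and 10061 to 17779 in WT (-0.11, SE 0.16, adjusted p = 0.593). Reads of Gapdh and other enzymes can be split with processed pseudogenes of near-identical sequence.

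Hexokinases carry out the first step, the phosphorylation of glucose. Hk1 had 3161 to 4369 normalized counts in Whsc1-KO and 3925 to 5040.2 in WT and was lower (-0.33, SE 0.09, adjusted p = 0.00774). Hk2, the hexokinase induced in dividing cells, had 2567 to 4973 in Whsc1-KO and 1993 to 4150.4 in WT and did not pass (0.14, SE 0.18, adjusted p = 0.523). Hk3, a hexokinase known from myeloid cells, had 43.4, 39.9 and 40.1 in Whsc1-KO replicates 1 to 3 and 202, 204 and 200.2 in Whsc1-KO replicates 4 to 6, against 31.3 to 57.9 in WT. Its log2 fold change was 2.20 (SE 0.21, adjusted p = 2.17e-06) in the later set and 0.09 (SE 0.22) in replicates 1 to 3, with a difference of 2.11 (SE 0.30, adjusted p = 0.000713). The myeloid marker sum of 10605 to 13555 was highest in the same 3 libraries; its part in the level of Hk3 was not tested.

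Gpi1, the isomerase of the second step, had 35504, 31959 and 25643 normalized counts in Whsc1-KO replicates 1 to 3 and 17410.2, 17532 and 18558 in Whsc1-KO replicates 4 to 6, against 29187 to 46717 in WT. It was lower over all libraries (-0.75, SE 0.18, adjusted p = 0.00379), and the difference between the sets of -0.87 (SE 0.23) had an adjusted p of 0.0156. The 3 phosphofructokinase genes encode the committed step of glycolysis. Pfkm, the muscle-type subunit (chromosome 15, 98092589 to 98132451, plus strand, GRCm38), had 254, 236 and 209 in Whsc1-KO replicates 1 to 3 and 207, 203 and 157 in Whsc1-KO replicates 4 to 6, against 529, 407 and 436 in WT replicates 1 to 3 and 579.6, 368, 534 and 489.6 in WT replicates 4 to 7. All Whsc1-KO libraries were below all WT libraries. Exons of Pfkm overlap those of Gm26513 on the same strand by up to 341 bases. They overlap those of Senp1 on the opposite strand by up to 18, and reads there may be counted in either gene. Pfkm averaged 211 ± 33.3 (SD, n = 6) in Whsc1-KO and 477 ± 76.4 (SD, n = 7) in WT, and its log2 fold change was -1.17 (SE 0.13, adjusted p = 1.99e-05) over all libraries. It was -0.96 (SE 0.17, adjusted p = 0.00243) in replicates 1 to 3 and -1.37 (SE 0.16) in the later ones, a difference of -0.40 (SE 0.24) that did not pass (adjusted p = 0.231).

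The liver- and platelet-type subunits were the more abundant ones. Per kilobase of exon, Pfkm made up 5.49% ± 1.32 (SD, n = 6) of the 3 in Whsc1-KO and 7.99% ± 2.00 (SD, n = 7) in WT. Pfkp ran from 4933 to 8605 in Whsc1-KO and from 6978 to 12701 in WT and was lower (-0.62, SE 0.17, adjusted p = 0.00848). Pfkl ran from 2994 to 7340.1 in Whsc1-KO and from 3099 to 8556 in WT, with WT replicate 3 lowest at 3099, and did not pass (-0.59, SE 0.28, adjusted p = 0.0901).

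The aldolases split the sugar phosphate into 2 trioses. Aldoc had 5286, 3781 and 3268 normalized counts in Whsc1-KO replicates 1 to 3 and 507, 589.8 and 391 in Whsc1-KO replicates 4 to 6, against 6251, 7042 and 4086 in WT replicates 1 to 3 and 7873, 4023, 8674 and 5719 in WT replicates 4 to 7. The later Whsc1-KO libraries lay far below all others. Aldoc had a log2 fold change of -2.10 (SE 0.58, adjusted p = 0.00826) over all libraries, -3.68 (SE 0.27) in the later set and -0.49 (SE 0.29) in replicates 1 to 3, with a difference of -3.20 (SE 0.39, adjusted p = 0.000354). Aldoa, the main aldolase, ran from 19176 to 41765 in Whsc1-KO and from 26679 to 47165 in WT and did not pass over all libraries (-0.44, SE 0.21, adjusted p = 0.0897); in the later set it was lower (-0.86, SE 0.21, adjusted p = 0.00382). Per kilobase of exon, Aldoc made up 5.71% ± 4.07 (SD, n = 6) of both in Whsc1-KO, with 2.12% in the later libraries, and 12.8% ± 1.08 (SD, n = 7) in WT.

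**Figure D4:**
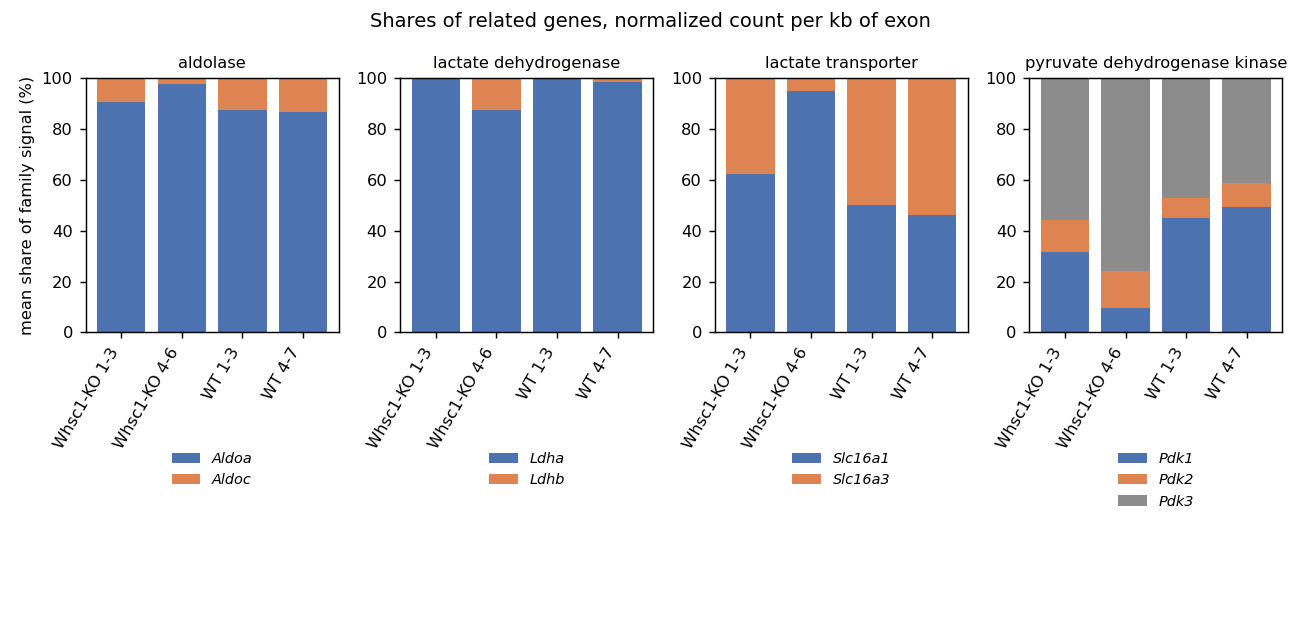
Bars show the mean share (%, of the sum of normalized counts per kilobase of exon) that each gene takes of its family in Whsc1-KO replicates 1 to 3, Whsc1-KO replicates 4 to 6, WT replicates 1 to 3 and WT replicates 4 to 7. In the later Whsc1-KO libraries Aldoc falls to 2.12%, Slc16a3 to 5.11% and Pdk1 to 9.57% of their families, and Ldhb reaches 12.4%.

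In the later steps of the pathway Pgk1, an X-linked phosphoglycerate kinase that yields ATP, ran from 18655 to 42089 normalized counts in Whsc1-KO and from 31319.6 to 54169 in WT and was lower (-0.75, SE 0.19, adjusted p = 0.00424; -0.87 with a sex score in the fit). Eno1, the main enolase, ran from 23379 to 49840.2 in Whsc1-KO and from 33814 to 52084 in WT. Its log2 fold change of -0.45 (SE 0.18, adjusted p = 0.0464) was lost without any 1 of 9 libraries, all but Whsc1-KO replicates 1 and 2 and WT replicates 3 and 5 (adjusted p at most 0.109). It was also lost with edgeR (adjusted p = 0.0799) and DESeq2 (adjusted p = 0.0633). Tpi1 (-0.55, SE 0.28, adjusted p = 0.116), Gapdh (-0.24, SE 0.12, adjusted p = 0.0937) and Pkm (-0.40, SE 0.17, adjusted p = 0.055), a triose isomerase, the enzyme that reduces NAD and pyruvate kinase, did not pass over all libraries. In the later set each of the 3 was lower, at -1.02 (SE 0.32) for Tpi1, -0.39 (SE 0.11) for Gapdh and -0.70 (SE 0.16) for Pkm.

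Ldhb, the lactate dehydrogenase of heart and erythroid cells, was nearly absent from most libraries. It had 21.7, 13.3 and 22.3 normalized counts in Whsc1-KO replicates 1 to 3 and 1745, 2646 and 745 in Whsc1-KO replicates 4 to 6. In WT it had at most 15.7 in 6 libraries and 571 in replicate 5. In the later set its log2 fold change was 6.07 (SE 1.21, adjusted p = 0.000795), while over all libraries it did not pass (3.30, SE 1.42, adjusted p = 0.0649). The difference between the sets was 5.41 (SE 1.77, adjusted p = 0.0407), while edgeR and DESeq2 both gave 2.84, with adjusted p values of 0.384 and 0.308. The limma call was also lost without any 1 of 11 libraries, all but Whsc1-KO replicate 6 and WT replicate 5 (adjusted p at most 0.0921). The erythroid marker sum was 12911, 24219 and 194427 in Whsc1-KO replicates 4, 5 and 6, where Ldhb was 1745, 2646 and 745. That sum was 3323 in WT replicate 5 and 3108 in WT replicate 6, where Ldhb was 571 and 7.37. The part of erythroid RNA in the level of Ldhb was not tested. Per kilobase of exon Ldhb made up 12.4% of both lactate dehydrogenases in the later Whsc1-KO libraries, 0.138% in Whsc1-KO replicates 1 to 3, and 5.30% in WT replicate 5.

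Of the 5 regulatory kinases, 3 were lower and 2 did not pass (median log2 fold change -0.55). Pyruvate dehydrogenase kinases lower the use of pyruvate in mitochondria, and Pdk1 is a member known as a HIF target. Pdk1 (chromosome 2, 71873224 to 71903858, plus strand, GRCm38) had 4773, 3427 and 1923 normalized counts in Whsc1-KO replicates 1 to 3 and 700.4, 769.6 and 759 in Whsc1-KO replicates 4 to 6, against 7984, 7589 and 2535 in WT replicates 1 to 3 and 8142, 4103, 7619 and 4937 in WT replicates 4 to 7. Whsc1-KO replicate 1 exceeded WT replicates 3 and 5, so the groups overlapped. The log2 fold change was -1.89 (SE 0.47, adjusted p = 0.00418) over all libraries, -3.0 (SE 0.39) in the later set and -0.76 (SE 0.42) in replicates 1 to 3, and the difference of -2.24 (SE 0.57) passed with an adjusted p of 0.0137. Per kilobase of exon Pdk1 made up 20.7% ± 13.4 (SD, n = 6) of Pdk1, Pdk2 and Pdk3 in Whsc1-KO and 47.6% ± 9.97 (SD, n = 7) in WT.

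Pdk2 had 443, 509 and 575 normalized counts in Whsc1-KO replicates 1 to 3 and 531, 425 and 449 in Whsc1-KO replicates 4 to 6, against 378, 389 and 339.9 in WT replicates 1 to 3 and 409, 491, 429 and 471 in WT replicates 4 to 7. It was higher in replicates 1 to 3 (0.46, SE 0.12, adjusted p = 0.019) and did not pass in the later set (0.05, SE 0.11) or over all libraries (0.24, SE 0.10, adjusted p = 0.0667). The first call was lost without Whsc1-KO replicate 2 or 3 or WT replicate 3 (adjusted p = 0.0511 to 0.0699) and in a fit on replicates 1 to 3 alone (adjusted p = 0.0507). Pdk3, which is X-linked, had 1679.6 to 1994 in Whsc1-KO and 1601 to 2178 in WT (0.12, SE 0.07, adjusted p = 0.162). In the later set it was higher (0.23, SE 0.09, adjusted p = 0.0317), a call lost without any 1 of Whsc1-KO replicates 4, 5 and 6 or WT replicates 5 and 7 (adjusted p at most 0.0987).

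Pfkfb3 and Pfkfb4 encode kinases that make fructose 2,6-bisphosphate, an activator of phosphofructokinase. Pfkfb3 had 3699.9, 3571 and 3234 normalized counts in Whsc1-KO replicates 1 to 3 and 3425, 3247 and 3902 in Whsc1-KO replicates 4 to 6, against 5417, 4768 and 4022 in WT replicates 1 to 3 and 6701, 4686, 6285 and 4609 in WT replicates 4 to 7. Every Whsc1-KO library lay below every WT library, as for Hif1a and Pfkm, and the log2 fold change was -0.55 (SE 0.11, adjusted p = 0.00094). These 3 of the 36 genes had no overlap over all libraries, against 10.2% of all genes tested with Whsc1-KO below WT, and 0 lay above WT, against 9.03%. Within replicates 1 to 3 the same 3 lay below and Pdk2 above, against 20.1% and 18% of all genes tested. In the later set alone 25 genes lay below WT without overlap and 4 above, against 31% and 31.4% of all genes tested. Pfkfb4 had 827, 689 and 817 in Whsc1-KO replicates 1 to 3 and 488, 481 and 361 in Whsc1-KO replicates 4 to 6, against 768 to 987 (median 882) in WT. It was lower over all libraries (-0.60, SE 0.17, adjusted p = 0.0103), and the difference between the sets was -0.92 (SE 0.17, adjusted p = 0.00256).

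The genes that neighbour these pathways were taken from lists, which were chosen with earlier results of these data known. Up to 3 per list are named by the smallest adjusted p, so the named genes were picked by how they moved. The counts of each list over all libraries stand against 25.7% lower and 26.1% higher among all genes tested. Of 11 tested genes for the entry of pyruvate into mitochondria, 5 were higher and 2 lower (median log2 fold change 0.32), and the pyruvate dehydrogenase subunits Pdhb and Dlat were both at 0.42, with Pdhb at 3019 to 3855 normalized counts in Whsc1-KO and 2250.1 to 2912 in WT. Pcx, the pyruvate carboxylase that replenishes the citric acid cycle, was at 0.57 (SE 0.13). Within replicates 1 to 3, 1 of these 11 genes was higher and 2 were lower (median 0.06). In the later set 6 were higher and 2 lower (median 0.55). Of all genes tested, 10.5% were higher and 12.6% lower in replicates 1 to 3, and 30.7% and 30.6% in the later set. The pentose phosphate pathway branches from glucose 6-phosphate to make NADPH and ribose. Of its 7 genes, 3 were higher and 0 lower over all libraries (median 0.18). They were the first enzyme G6pdx at 0.44 (SE 0.08, X-linked), the transaldolase Taldo1 at 0.41 (SE 0.08) and Pgd at 0.33 (SE 0.08). Within replicates 1 to 3, 1 of the 7 was higher and 0 lower (median 0.07). In the later set 5 were higher and 1 lower (median 0.34). The difference between the sets was more positive in the later set for 6 of the 11 genes of pyruvate entry and 3 of these 7. The share among all genes tested was 14.5%.

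Of 14 genes for branches of glycolysis and second regulators, 6 were lower and 3 higher (median -0.17). Mlxip, a glucose-sensing transcription factor, had 7683 to 11024 normalized counts in Whsc1-KO and 15825 to 19019.6 in WT (-0.88, SE 0.09, adjusted p = 8.32e-06). The glycogen-branching enzyme Gbe1 was at -1.06 (SE 0.17) and Pfkfb2 at -0.59 (SE 0.10). Mlxip, Gbe1 and Pfkfb2 were also lower within replicates 1 to 3, at -0.70 (SE 0.07), -0.72 (SE 0.14) and -0.37 (SE 0.09). Only 3 of 10 isoenzyme genes restricted to other tissues had enough reads to be tested. The enolases Eno2 (-0.89, SE 0.25) and Eno3 (-0.73, SE 0.19) were lower. Within replicates 1 to 3 neither passed, at -0.46 (SE 0.22) for Eno2 and -0.20 (SE 0.16) for Eno3.

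Of 12 tested genes that control HIF, 5 were higher and 3 lower (median 0.10). Hif3a, which encodes another HIF alpha subunit, had 102, 50.6 and 59.1 normalized counts in Whsc1-KO replicates 1 to 3 and 61.8, 80.1 and 88.2 in Whsc1-KO replicates 4 to 6, against 131 to 523 in WT, without overlap (-1.94, SE 0.31, adjusted p = 0.000312). Siah2, a ubiquitin ligase that removes the hydroxylases, was at -0.56 (SE 0.09). Tceb2, which encodes elongin B of the complex that degrades HIF alpha, was at 0.39 (SE 0.07). Within replicates 1 to 3 Tceb2 did not pass (0.21, SE 0.08, adjusted p = 0.0636). Of 24 further tested hypoxia-induced genes, 8 were lower and 2 higher (median -0.24). Adm, which encodes the peptide adrenomedullin, had 72.6 to 104 in Whsc1-KO and 198 to 341 in WT (-1.50, SE 0.15, adjusted p = 8.32e-06), with -1.39 (SE 0.22) in replicates 1 to 3 and -1.60 (SE 0.21) in the later set. Vldlr, a lipoprotein receptor, was at -2.49 (SE 0.50), while Plod1, a collagen lysyl hydroxylase, was at 0.82 (SE 0.17).

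**Figure D5:**
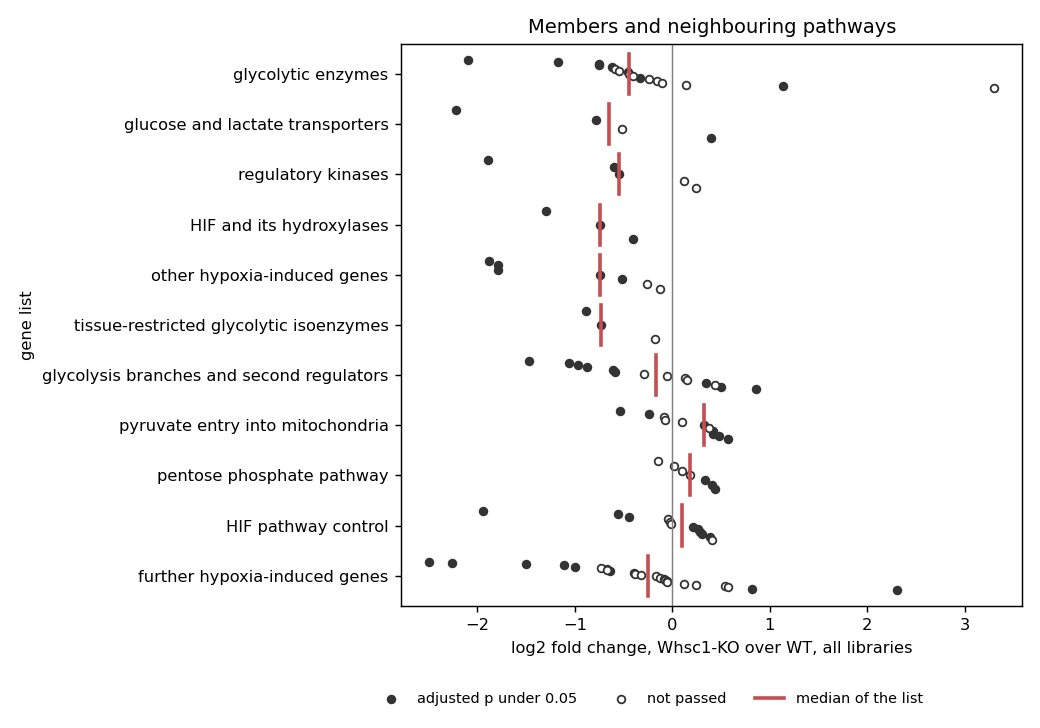
Points show the log2 fold change of Whsc1-KO over WT across all libraries for every tested gene of each list (rows; the first 5 lists hold the 36 genes), filled where the adjusted p was under 0.05; the red line is the median of the list. The medians of the first 5 lists lie between -0.74 and -0.44, those of pyruvate entry and the pentose phosphate pathway at 0.32 and 0.18.

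In the authors' deposited table of fold changes, 16 of the 36 genes were lower at an adjusted p under 0.05, 2 were higher and 18 did not pass. The call was the same as here for 32 genes and none was called in opposite directions. For Bnip3 the authors' deposited table gave a log2 fold change of -0.87 with an adjusted p of 0.0545, and for Hif1a -0.39 with 3.87e-22. Here limma gave -1.79 for Bnip3, and DESeq2 on the recovered reads gave -1.41. The sizes of fold changes are thus not directly comparable between these fits. In the authors' deposited table of KEGG pathways, HIF-1 signaling had 43 genes and a fold enrichment of 1.23 (Benjamini-adjusted p = 0.235), carbon metabolism 51 genes and 1.31 (0.092), and none of the 108 terms named glycolysis.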

How the data were processed

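Poly-A selected, strand-specific libraries of 6 Whsc1-KO and 7 WT samples were grouped by genotype and replicate number as labelled. The authors deposited normalized counts per gene (a signal): each library's gene counts had been scaled by a single factor, since at least 99.99% of values were whole multiples of 1 step within 0.05 reads in each library. The submitters' processing notes name GRCm38 and mm9 as builds and list the tools DESeq2 1.10.1, RSEM 1.2.28 and STAR 2.5.1b, without their roles. Whether strand was used in counting is not given in the sources used here; 13 of the 36 genes overlap an exon on the opposite strand and 3 one on the same strand. The authors also deposited a table with log2 fold changes, Wald scores and p-values, and, per the file headers, a KEGG table with fold enrichments and percent of genes.

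Values were tested as log2(value + 1) with limma 3.58.1 (mean-variance trend), two-sided, on the 13947 genes with at least 10 in at least 6 libraries; 33696 were left out. All libraries were fitted with 2 group means, and replicate sets and their difference with 4. On this scale fold changes of low genes depend on the pseudocount. edgeR 4.0.16 and DESeq2 1.42.0 on the recovered reads were alternatives, as were pseudocounts, filters, TMM scaling, a sex score, a term for the replicate set and leaving out each library. R 4.3.3, Python 3.11.15, numpy 2.4.6, pandas 2.3.3 and matplotlib 3.10.9 were used. The fits were also run on simulated counts with known changes. There few genes changed and no sex or cell content differed, so that run does not check the fits for such differences. Identifiers matched GENCODE M21 of GRCm38 for 47224 of 47643 genes (99.1%); promoters are RefSeq's for 34 of the 36 genes (Slc2a3 and Ndrg1 had no entry). The members and lists were chosen with earlier results of these data known. All 36 genes are named, and of neighbouring lists up to 3 genes with the smallest adjusted p among those that passed. P-values measure the spread between samples that the study calls independent biological replicates.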

Additional observations from a re-analysis of the deposited data

Results flagged for a closer look

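Within a group, 3 values of 72 sets of libraries (36 genes in 2 groups) stood apart by the gap to their nearest neighbour relative to the range; chance gives about 1 in 20. They were Ldhb at 571 normalized counts in WT replicate 5, Pdk3 at 1679.6 in Whsc1-KO replicate 3 (below the others) and Pdk3 at 2178 in WT replicate 2 (above the others).

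For 11 genes the fold change differed between the sets of replicates in limma's test of that difference (later set minus replicates 1 to 3, adjusted p under 0.05). It was more positive in the later set for Hk3 (2.11), Ldhb (5.41) and Slc16a1 (0.80). It was more negative for Gpi1 (-0.87), Aldoc (-3.20), Slc16a3 (-2.91), Pdk1 (-2.24), Pfkfb4 (-0.92), P4ha1 (-1.55), Ankrd37 (-3.16) and Kdm3a (-0.93). The myeloid and erythroid marker sums were highest and the B cell marker sum lowest in the same 3 Whsc1-KO libraries, and their part in these differences was not tested.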

How the results depend on the processing

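Over all libraries the count of lower genes was 20; it was 4 without Whsc1-KO replicates 4 to 6, 11 at a threshold of 0.01, and 16 to 25 with each library left out. The count of higher genes was 2; it was 0 without a filter, 0 without Whsc1-KO replicates 4 to 6, 0 at a threshold of 0.01, 1 under the stricter filter of 50 in at least 6 libraries, 1 with a replicate block, and 0 to 3 with each library left out. In replicates 1 to 3 the higher count of 1 was 0 in a fit on these replicates alone, 0 with a replicate block, 0 at a threshold of 0.01 and 0 to 1 with a library left out, and the lower count of 2 was 7 with a replicate block and 2 to 10 with a library left out. In the later set the higher count of 4 was 2 under the stricter filter, which removes Hk3 and Ldhb. The difference between sets was more positive for 3 genes, or 1 under the stricter filter and 2 to 3 with a library left out. It was more negative for 8 genes, or 3 at a threshold of 0.01 and 6 to 15 with a library left out. Other counts stayed within 1.5 times. Shares of all genes tested are not given for these settings, so the changed counts cannot be called particular to these genes. TMM scaling shifted the median of all genes by at most 0.015 (log2).

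Signs changed for Pgam1 over all libraries (0.02 without Whsc1-KO replicates 4 to 6) and, with a library left out, for Slc16a1 (-0.11 to 0.07) and Hk3 (-0.06 to 0.29) in replicates 1 to 3, Pdk2 in the later set (-0.04 to 0.12) and Hif1a in the difference (-0.05 to 0.01). Fold changes within sets are printed only for genes called there or in a related comparison, a choice made after seeing the alternatives. Of 22 genes not printed for replicates 1 to 3, 12 took the other sign somewhere (25 of 506 values); so did 2 of 6 in the later set (5 of 144 values) and 4 of 22 in the difference (12 of 462 values).

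Calls that held in every setting were 4 of 22 over all libraries (25 settings), 2 of 3 in replicates 1 to 3 (23), 25 of 29 in the later set (24) and 5 of 11 in the difference (21). The labels do not say whether the replicate numbers pair the samples, and a weak correlation cannot exclude a pairing. Same-numbered libraries correlated at -0.108 to 0.206 in their deviations from the group means. In deviations from the means of each genotype and replicate set they correlated at -0.016 to 0.214. By these last deviations 0 of 6 Whsc1-KO libraries correlated best with the WT library of their own number.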
